A study of Danio rerio with 12 samples.

Results

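Larvae exposed to atrazine at 30 ppb were compared with larvae exposed at 3 ppb, to ask what a higher dose adds within the range tested. Atrazine is a triazine herbicide, and ppb is a concentration equal to micrograms per litre of water. The comparison takes the 3 pools labelled 30 ppb and the 3 pools labelled 3 ppb, which are 6 of the 12 pools in the study. Pools were assigned by their labels, and the comparison itself was chosen with earlier results of these data known. The 30 ppb group comprised wild-type AB zebrafish held in 30 ppb atrazine from about 1 to 72 hours post fertilization, and the 3 ppb group comprised the same strain held in 3 ppb over the same hours. Each pool held 50 whole animals collected at 72 hours, and its RNA was hybridised to its own one-colour NimbleGen array with Cy3 label. Unexposed pools and pools at 0.3 ppb were not part of the comparison. The labels call the pools biological replicates and do not say whether their parents differed, and the p-values here reflect pool-to-pool spread alone, which may be technical. Whole larvae were pooled, so a lower level of a tissue's transcript cannot be told apart from fewer cells of that tissue.

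In plants atrazine blocks electron transport in photosystem II. In vertebrates it has been studied mainly for effects on the reproductive neuroendocrine axis, in which neurons of the hypothalamus release peptides, the pituitary answers with hormones such as luteinizing hormone, and the gonad makes sex steroids. At 72 hours a zebrafish larva has hatched or is hatching, and it has a beating heart, working trunk muscle, a pigmented eye, circulating red cells and an early pituitary and exocrine pancreas.

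No gene differed between 30 and 3 ppb past the threshold of an adjusted p under 0.05 (limma with Benjamini-Hochberg adjustment). A unit is the mean of all array features of 1 gene or target, and 0 of 37144 units (0%) passed, made up of 2650 named genes and 34494 targets that have no name here. The smallest adjusted p of any unit was 1 and the smallest unadjusted p was 0.000573. The count was 0 in 20 of the 21 settings tried. The exception was the fit with limma's array quality weights, where 6700 units passed, 3632 of them higher. That weighting did not converge, and it put a weight of 20.3 on replicate 3 at 3 ppb, against 0.181 to 3.95 on the other 5 pools. At an unadjusted p under 0.05 there were 219 units (0.59% of those tested), 138 higher and 81 lower at 30 ppb. That is fewer than the 1857 units that this cutoff would give by chance if no unit differed. In 1337 units (3.6%) all pools of 1 dose lay above all pools of the other, with 543 higher and 794 lower at 30 ppb. With 3 pools a dose, random order alone would separate the pools in a larger share of units than this. Among the 2458 genes whose symbol is more than a clone or locus ID, 8 (0.325%) had an unadjusted p under 0.05, and 96 (3.91%) had pools that did not overlap, 29 higher (1.18%) and 67 lower (2.73%). Over all units the median difference, 30 minus 3 ppb on the log2 scale, was -0.0045, and 48.6% of units were higher at 30 ppb. For the 2458 genes the median was -0.029, with 40.5% higher. Below, "higher" and "lower" in counts of group members give only the sign of the difference, and none of these differences passed the test.

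The pools did not group by dose. Dose explained 9.43% of the variance over the 6 arrays. The largest axis of variation held 55.5% of it, and dose explained 1.98% of that axis. The root-mean-square log2 difference between a 30 ppb and a 3 ppb pool ranged over the 9 such pairs from 0.242 to 0.548, with a median of 0.367. Over the 6 pairs from 1 dose it ranged from 0.24 to 0.516, with a median of 0.396. Replicate 2 at 30 ppb lay closer to replicates 3 and 2 at 3 ppb (differences of 0.242 and 0.276) than to either other pool of its own dose (0.332 and 0.361). The pools farthest apart were replicate 3 at 30 ppb and replicate 1 at 3 ppb. Replicate 1 of each dose stood apart from the other 4 pools, and without both of them, a fit added after the data were seen, 1480 units had an unadjusted p under 0.05 and 0 passed the threshold. A gradient along the numbers that end the feature IDs was taken for each array's deviation from the mean of all 12 arrays. Replicate 1 at 3 ppb had the lowest gradient (-0.0967 log2 from first to last feature, against 0.003 to 0.0634 in the other 5 pools). In the unexposed and 0.3 ppb pools it ranged from -0.0867 to 0.0516. The part of the gradient in the results was tested only through the fit with the gradient as a covariate, which gave 0 calls.

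**Figure D1:**
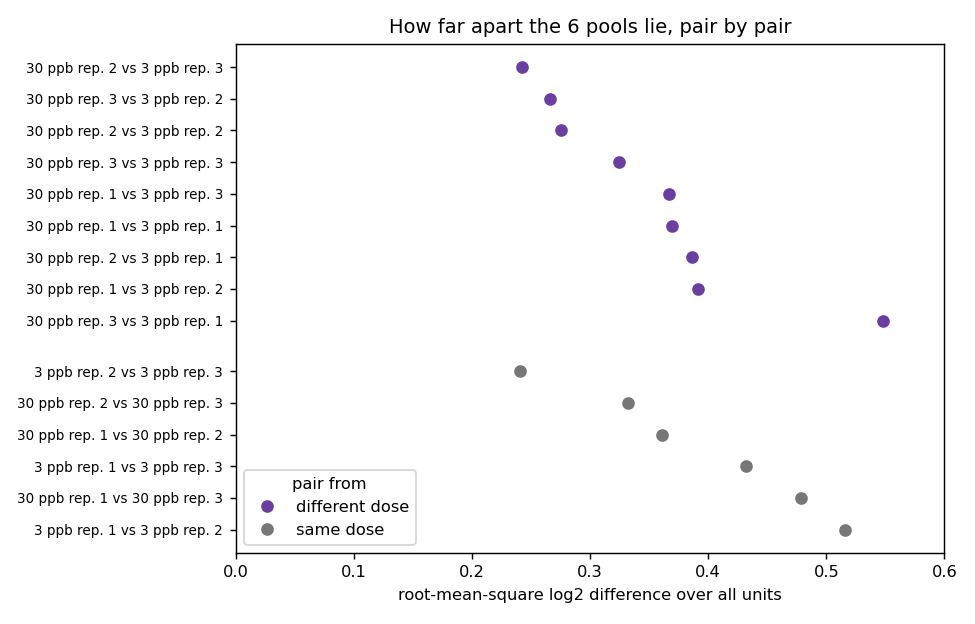
Root-mean-square log2 difference over 37144 units for each pair of pools, with the 9 pairs from different doses above and the 6 pairs from 1 dose below. Pairs from different doses lie between 0.242 and 0.548, and pairs from 1 dose between 0.24 and 0.516, so both kinds cover nearly the same range.

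How large a difference these pools could hide is given by the intervals. The median unit differed by 0.091 in either direction on the log2 scale, with a median SE of 0.18, and 95% of units differed by no more than 0.30. The 95% interval of the difference lay wholly within 1.5-fold either way for 25214 units (67.9%) and wholly within 2-fold for 35921 (96.7%). These intervals are per unit and carry no correction for the number of units. The adjusted threshold is stricter. In simulated data with the means and spreads of these units, it called 53% of added 2-fold changes. It called 6% of 1.5-fold and 91.5% of 4-fold changes. The simulated noise was independent between units, and changes were added to 200 units at each size in the same data. The adjusted threshold is stricter where fewer units differ, a case that was not simulated. For the remaining units the interval with 3 pools a dose also holds differences beyond those bounds. Only 3 units had a difference over 2-fold. All 3 were unnamed targets with 1 or 2 features, and the pools did not overlap in 1 of them, ENSDART00000062848. It stood at 9.16, 9.10 and 10.08 in the 30 ppb pools, against 8.66, 8.53 and 7.87 in the 3 ppb pools (difference 1.09, SE 0.30, 95% interval 0.41 to 1.77, unadjusted p = 0.00544, adjusted p = 1).

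An unadjusted p under 0.05 and no overlap were found together in 174 units (0.468%), 6 of them among the 2458 genes. Of the unnamed targets among the 174, only the 2 with the largest difference in each direction are described. Besides ENSDART00000062848, these were 1 higher and 2 lower. The target ENSDART00000101223 was at 6.63, 6.60 and 7.53 in the 30 ppb pools, against 6.06, 6.29 and 5.73 in the 3 ppb pools (difference 0.90, SE 0.27), with 7 of 7 features higher. On the other side, ENSDART00000064882 was at 4.99, 5.18 and 5.12 in the 30 ppb pools, against 5.84, 5.88 and 5.76 in the 3 ppb pools (difference -0.73, SE 0.14), from 2 features. Both this target and ENSDART00000101223 were dim, and the setting with a filter on dim units left them out. The target ENSDART00000041385 was at 8.34, 9.27 and 8.83 in the 30 ppb pools, against 9.53, 9.58 and 9.37 in the 3 ppb pools (difference -0.68, SE 0.23), with 10 of 10 features lower. Their adjusted p-values were 1.

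Of the 8 genes with an unadjusted p under 0.05, 6 were higher (0.244% of the 2458) and 2 lower (0.0814%) at 30 ppb, and in 6 the pools of the doses did not overlap. The largest difference was in fam169aa, at 8.89, 8.70 and 8.98 in the 30 ppb pools, against 8.52, 8.57 and 7.51 in the 3 ppb pools (difference 0.66, SE 0.27, 95% interval 0.039 to 1.28, unadjusted p = 0.0397, adjusted p = 1). All 12 of its features were higher. The gap rests largely on the low value of replicate 3 at 3 ppb, without which the difference was 0.31. The gene dnmt3aa, which encodes a DNA methyltransferase that sets new methyl marks, was at 9.83, 9.97 and 10.38 in the 30 ppb pools, against 9.77, 9.44 and 9.31 in the 3 ppb pools (difference 0.55, SE 0.20, 95% interval 0.11 to 1.000, unadjusted p = 0.0208, adjusted p = 1). Its pools were separated by a narrow step, from replicate 1 at 30 ppb to replicate 1 at 3 ppb, and 12 of 12 features were higher. The third was pnpla7a, a gene of the patatin-like phospholipase family, at 9.35, 9.48 and 9.82 in the 30 ppb pools, against 9.12, 9.23 and 9.03 in the 3 ppb pools (difference 0.42, SE 0.17, 95% interval 0.046 to 0.80, unadjusted p = 0.032, adjusted p = 1).

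The calpain gene capn2a, which encodes a calcium-dependent protease, was at 11.76, 11.99 and 12.25 in the 30 ppb pools, against 11.64, 11.68 and 11.42 in the 3 ppb pools (difference 0.42, SE 0.17, 95% interval 0.030 to 0.81, unadjusted p = 0.0378, adjusted p = 1), with 11 of 12 features higher. Complement gene c3a.6, one of several copies of the central complement component C3 in zebrafish, was at 8.68, 8.99 and 8.77 in the 30 ppb pools, against 8.41, 8.43 and 8.41 in the 3 ppb pools (difference 0.39, SE 0.15, 95% interval 0.060 to 0.73, unadjusted p = 0.0258, adjusted p = 1). The 3 ppb pools were nearly equal for c3a.6, and each 30 ppb pool lay above them. Lower at 30 ppb was sowahcb, which encodes an ankyrin-repeat protein, at 8.53, 8.82 and 8.74 in the 30 ppb pools, against 9.13, 8.88 and 9.19 in the 3 ppb pools (difference -0.37, SE 0.16, 95% interval -0.73 to -0.0099, unadjusted p = 0.0452, adjusted p = 1), and 12 of 12 features were lower. With the median of its features, the difference of sowahcb was -0.14 (SE 0.21, unadjusted p = 0.499 in the limma fit).

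In the remaining 2 genes of the 8 the pools overlapped. The collagen gene col19a1 was at 9.55, 8.89 and 9.39 in the 30 ppb pools, against 8.84, 8.95 and 8.62 in the 3 ppb pools (difference 0.48, SE 0.20, 95% interval 0.027 to 0.93, unadjusted p = 0.04, adjusted p = 1), where replicate 2 at 30 ppb lay below replicate 2 at 3 ppb. The dopamine D2 receptor gene drd2b was at 8.27, 8.94 and 8.31 in the 30 ppb pools, against 9.41, 8.71 and 9.05 in the 3 ppb pools (difference -0.55, SE 0.24, 95% interval -1.09 to -0.0079, unadjusted p = 0.0474, adjusted p = 1), where the replicate 2 pools crossed. D2 receptors carry the inhibitory dopamine signal, among others to pituitary cells. All 8 genes kept their sign in each fit that left out 1 pool. For drd2b these fits gave differences between -0.76 and -0.37, and the fit without replicate 1 of both doses gave -0.25. When the median of a gene's features replaced their mean, 1 of the 8 still had an unadjusted p under 0.05, and with replicate 3 at 3 ppb left out 0 of the 8 did.

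**Figure D2:**
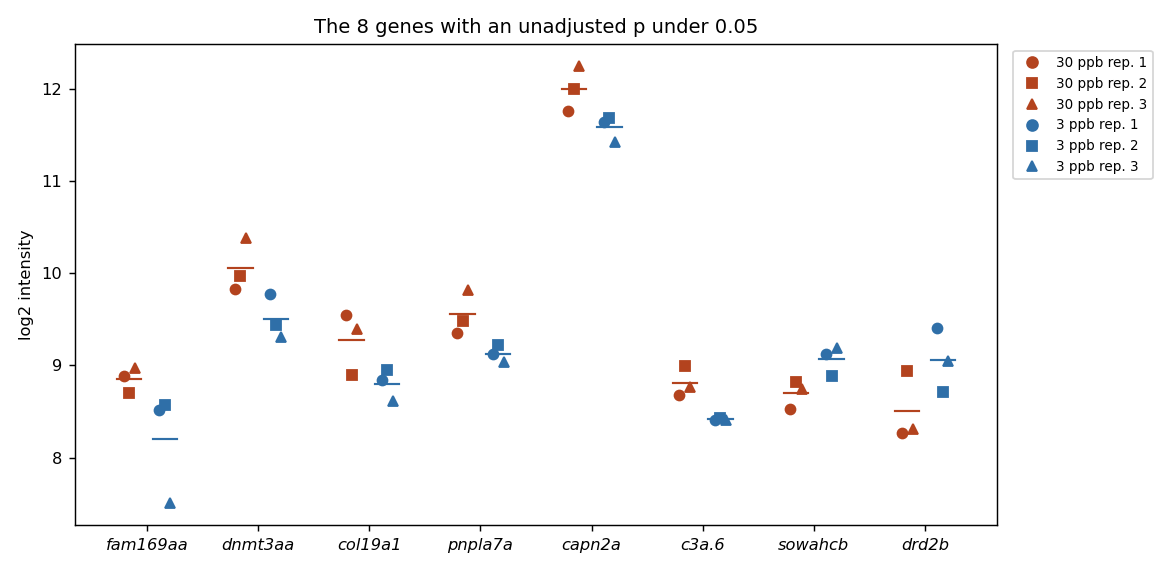
Log2 intensity of the 8 genes with an unadjusted p under 0.05, with 1 symbol per pool, the 30 ppb pools left of the 3 ppb pools for each gene, and short lines for group means. In 6 genes all 30 ppb pools lie on 1 side of all 3 ppb pools, while those of col19a1 and drd2b overlap.

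No gene of a hypothalamic or pituitary hormone passed the threshold, and the intervals were wide. Of the 9 measured, 2 were higher and 7 lower at 30 ppb, 0 had an unadjusted p under 0.05, the pools overlapped in all 9, and the median difference was -0.11. The gene lhb, which encodes the beta subunit of luteinizing hormone, was at 7.48, 7.52 and 7.08 in the 30 ppb pools, against 8.17, 6.92 and 7.06 in the 3 ppb pools (difference -0.026, SE 0.31, 95% interval -0.73 to 0.68, unadjusted p = 0.936). Its mean was 7.36 ± 0.25 at 30 ppb and 7.39 ± 0.69 at 3 ppb (SD, n = 3 each), and the highest of the 6 values was replicate 1 at 3 ppb. Without that pool the difference of lhb was 0.37. The 95% interval of lhb therefore allows a level at 30 ppb up to 1.66-fold lower or 1.6-fold higher than at 3 ppb.

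Somatolactins are hormones of the fish pituitary, in one family with growth hormone and prolactin. For smtla the levels were 7.07, 7.39 and 7.08 in the 30 ppb pools, against 6.87, 7.07 and 7.20 in the 3 ppb pools (difference 0.13, SE 0.16, 95% interval -0.24 to 0.50). For smtlb they were 6.37, 6.29 and 6.21 in the 30 ppb pools, against 6.82, 6.10 and 6.48 in the 3 ppb pools (difference -0.18, SE 0.20, 95% interval -0.62 to 0.27). The pools of both genes overlapped. Among the peptides of the hypothalamus, avp, which encodes the vasopressin-type hormone, was at 9.24, 9.46 and 8.98 in the 30 ppb pools, against 9.52, 9.16 and 9.42 in the 3 ppb pools (difference -0.14, SE 0.18, 95% interval -0.55 to 0.26).

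The hypocretin gene hcrt, whose peptide promotes wakefulness, was at 7.01, 6.65 and 6.26 in the 30 ppb pools, against 7.11, 6.51 and 6.67 in the 3 ppb pools (difference -0.12, SE 0.23, 95% interval -0.65 to 0.40). In both doses its highest value was in replicate 1. Thyrotropin-releasing hormone, from trh, was at 8.01, 7.97 and 7.96 in the 30 ppb pools, against 7.82, 8.23 and 8.21 in the 3 ppb pools (difference -0.11, SE 0.16, 95% interval -0.47 to 0.26). The neuropeptide FF-like gene npffl was at 10.03, 10.32 and 9.84 in the 30 ppb pools, against 10.35, 9.85 and 10.17 in the 3 ppb pools (difference -0.062, SE 0.19, 95% interval -0.49 to 0.37), and the pools were interleaved. The remaining members were adcyap1a, the gene of the peptide PACAP, with a difference of -0.11 (SE 0.22), and ghrh, the gene of growth hormone-releasing hormone, with 0.062 (SE 0.16). Leaving out 1 pool gave a median of the 9 genes between -0.20 and 0.068, so its sign depended on single pools.

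**Figure D3:**
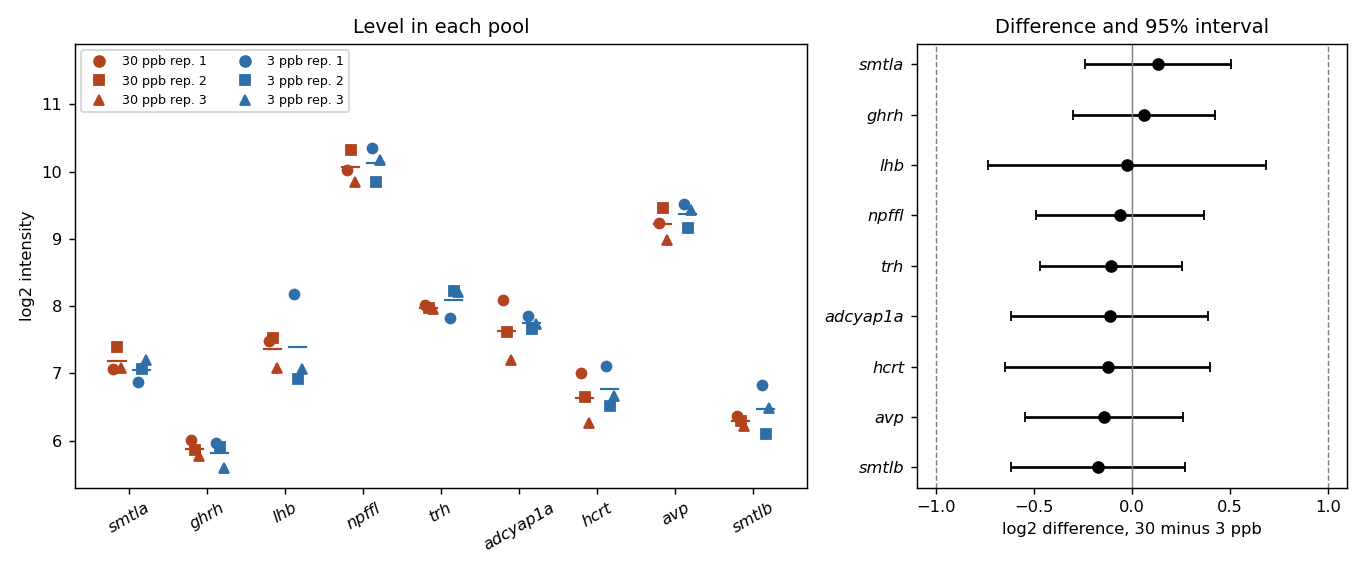
Left, log2 intensity of the 9 measured hypothalamic and pituitary hormone genes in each pool, 30 ppb pools left of 3 ppb pools, with short lines for group means. Right, the log2 difference of 30 minus 3 ppb with its 95% interval, where dashed lines mark 2-fold; all 9 intervals include 0 and lie within 2-fold.

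Downstream of these hormones, 8 genes of hormone receptors, steroid synthesis and egg yolk were measured, with 5 higher, 3 lower and a median of 0.0054, which changed sign when each array was centred on its median. The median level of the 8 was at percentile 14.9 of all units. The largest positive difference was in hsd17b1, which encodes the enzyme that forms estradiol from estrone, at 6.52, 5.81 and 5.75 in the 30 ppb pools, against 5.93, 5.62 and 5.78 in the 3 ppb pools (difference 0.25, SE 0.22, 95% interval -0.25 to 0.75). Replicate 1 at 30 ppb stood above the other 5 pools. The largest negative one was in hsd17b2, a gene of the same enzyme family, at 8.22, 8.28 and 8.20 in the 30 ppb pools, against 8.52, 8.34 and 8.39 in the 3 ppb pools (difference -0.18, SE 0.14, 95% interval -0.50 to 0.13), and its pools did not overlap. The luteinizing hormone receptor gene lhcgr differed by 0.13 (SE 0.16) and the vitellogenin genes vtg4 and vtg5, which encode yolk precursors, by 0.0036 (SE 0.15) and -0.010 (SE 0.28).

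No immune gene passed the threshold. Among 11 genes of innate immune cells and sensors 7 were higher and 4 lower at 30 ppb (median 0.053). Of these 1, c3a.6, had an unadjusted p under 0.05 with no overlap, against 0.244% of the 2458 genes. With the median of its features, the unadjusted p of c3a.6 in the limma fit was 0.338. A further complement copy, c3a.2, had the largest difference of the group, at 8.001, 7.99 and 8.60 in the 30 ppb pools, against 7.14, 8.05 and 7.70 in the 3 ppb pools (difference 0.57, SE 0.26, 95% interval -0.020 to 1.16, unadjusted p = 0.0565, adjusted p = 1). Its pools overlapped through replicate 2 at 3 ppb. Copies of C3 are similar in sequence, and features that bind more than 1 copy could not be identified here. The hepcidin gene hamp, an iron hormone made in inflammation, was at 8.20, 9.03 and 6.95 in the 30 ppb pools, against 8.19, 7.65 and 7.15 in the 3 ppb pools (difference 0.40, SE 0.47). At the negative end stood the interferon regulatory factor gene irf10, at 6.97, 7.06 and 6.87 in the 30 ppb pools, against 7.66, 7.05 and 7.07 in the 3 ppb pools (difference -0.29, SE 0.19, 95% interval -0.73 to 0.15).

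For the 23 cytokine, chemokine and receptor genes the count was 9 higher and 14 lower, with a median of -0.034. These genes were dim, with a median level at percentile 13.2 of all units. The interleukin 1 beta gene il1b, a main trigger of inflammation, was at 6.72, 9.56 and 6.46 in the 30 ppb pools, against 6.85, 6.71 and 6.81 in the 3 ppb pools. A single pool, replicate 2 at 30 ppb, was high, and the other 5 lay within 0.39 log2 units of each other. The difference was 0.79 with an SE of 0.68 (unadjusted p = 0.276), and without that pool it was -0.20. Of the 12 features of il1b, 11 were highest in that pool. The lowest difference was in il17c, also a cytokine gene, at 6.97, 6.90 and 6.60 in the 30 ppb pools, against 7.70, 6.67 and 6.999 in the 3 ppb pools (difference -0.30, SE 0.26, 95% interval -0.88 to 0.28). Over both immune groups, 10 of 34 genes had their highest value in replicate 2 at 30 ppb (29.4%), against 10.4% of all 2458 genes. More of them, 13 of 34, were highest in replicate 1 at 3 ppb (38.2%), against 28.4% of all 2458 genes. These shares were looked up after the values of il1b had been seen.

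In the nervous system the receptors for neurotransmitters gave 13 higher and 18 lower of 31 genes, with a median of -0.032. Besides drd2b, whose values are given above, the other measured dopamine receptor genes differed by -0.25 for drd4a (SE 0.17), -0.14 for drd3 (SE 0.19), -0.010 for drd2a (SE 0.18) and 0.076 for drd2l (SE 0.18). The highest difference of the group was in gria3b, a glutamate receptor subunit gene, at 8.77, 9.24 and 9.51 in the 30 ppb pools, against 9.02, 9.05 and 8.67 in the 3 ppb pools (difference 0.26, SE 0.21, 95% interval -0.22 to 0.74). Ion channel genes numbered 31, with 7 higher and 24 lower and a median of -0.064. The potassium channel gene kcnk6 was lowest, at 6.99, 7.43 and 7.14 in the 30 ppb pools, against 7.81, 7.46 and 7.39 in the 3 ppb pools (difference -0.37, SE 0.18, 95% interval -0.78 to 0.044, unadjusted p = 0.0743), and its pools overlapped narrowly. The calcium channel subunit gene cacna2d2a was highest (difference 0.21, SE 0.15).

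Synaptic, neuronal and glial genes gave 7 higher and 15 lower of 22 (median -0.087). They ranged between -0.28 for the synaptic vesicle gene sv2ba (SE 0.22) and 0.23 for the proline transporter gene slc6a7 (SE 0.16), and the pools of all 22 overlapped. Odorant, taste and other chemosensory receptor genes were dim, with a median level at percentile 7.1 of all units. Of the 19 measured, 4 were higher and 15 lower (median -0.079). The lowest was or95a1, at 6.58, 6.53 and 6.43 in the 30 ppb pools, against 7.28, 6.48 and 6.79 in the 3 ppb pools (difference -0.34, SE 0.21, 95% interval -0.81 to 0.13), where replicate 1 at 3 ppb was the highest pool. The group's median deviation from the mean of the 6 pools was 0.35 in that pool and between -0.22 and 0.016 in the other 5, and without it the median difference was 0.066. The highest, or41a2, differed by 0.16 (SE 0.21).

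No marker gene of a larval tissue passed the threshold. For the eye, 24 lens genes (crystallins and lens fibre membrane proteins) gave 9 higher and 15 lower, with a median of -0.046 and no gene whose pools separated. The group's median deviation was -0.19, -0.035 and 0.15 in the 30 ppb pools, against -0.28, 0.24 and 0.13 in the 3 ppb pools, so lens transcripts were low in replicate 1 of both doses. The widest difference was in crygm2a, at 7.13, 7.63 and 8.52 in the 30 ppb pools, against 7.14, 7.72 and 7.56 in the 3 ppb pools (difference 0.29, SE 0.33, 95% interval -0.45 to 1.02), and the gamma crystallin genes are close copies whose features may cross-hybridise. The lowest was crygmx, a further gamma crystallin, at -0.23 (SE 0.15).

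Photoreceptor genes numbered 8, with 1 higher and 7 lower and a median of -0.14, the lowest of all groups. The group's median deviation was -0.084, -0.142 and 0.006 in the 30 ppb pools, against -0.148, 0.101 and 0.155 in the 3 ppb pools. The lowest of these was in replicate 1 at 3 ppb. The opsin kinase gene grk1a was at 7.58, 7.80 and 7.58 in the 30 ppb pools, against 7.84, 7.89 and 7.92 in the 3 ppb pools (difference -0.23, SE 0.14, 95% interval -0.56 to 0.094, unadjusted p = 0.142), and its pools did not overlap. The related kinase gene grk7b was at 6.43, 6.29 and 6.40 in the 30 ppb pools, against 6.89, 6.41 and 6.55 in the 3 ppb pools (difference -0.25, SE 0.17, 95% interval -0.63 to 0.13). The phosphodiesterase subunit gene pde6hb was the member that was higher, by 0.11 (SE 0.20), a sign that turned with the median of features. Each of the 8 intervals included 0.

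Of 19 striated muscle genes 5 were higher and 14 lower (median -0.063). Troponin I gene tnni1c was lowest, at 10.45, 10.33 and 10.12 in the 30 ppb pools, against 10.61, 10.46 and 10.41 in the 3 ppb pools (difference -0.19, SE 0.15, 95% interval -0.54 to 0.16), and the myosin light chain gene myl13 was at 13.36, 13.91 and 14.09 in the 30 ppb pools, against 12.98, 14.24 and 13.99 in the 3 ppb pools (difference 0.051, SE 0.33, 95% interval -0.69 to 0.79). The pools of all 19 genes overlapped. The 7 globin and erythroid genes were all lower, with a median of -0.097 and differences between -0.22 for the embryonic beta globin gene hbbe3 (SE 0.30) and -0.018 for hbaa2 (SE 0.19), and the pools of all 7 overlapped. Leaving out 1 pool gave a median of the 7 between -0.20 and 0.027.

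Of 4 digestive enzyme genes of the exocrine pancreas, prss59.1 and ctrb.3 were widely spread among the 30 ppb pools. The trypsin-type protease gene prss59.1 was at 12.36, 10.97 and 9.96 in the 30 ppb pools, against 11.18, 11.41 and 11.15 in the 3 ppb pools (difference -0.15, SE 0.49, 95% interval -1.26 to 0.96). The chymotrypsinogen gene ctrb.3 was at 9.38, 7.66 and 6.93 in the 30 ppb pools, against 7.998, 7.82 and 7.58 in the 3 ppb pools (difference 0.19, SE 0.51, 95% interval -0.97 to 1.35). For both, replicate 1 at 30 ppb was the highest and replicate 3 at 30 ppb the lowest of all 6 pools, while the 3 ppb pools lay between them. The SD of prss59.1 was 1.21 at 30 ppb and 0.14 at 3 ppb (n = 3 each), and that of ctrb.3 was 1.25 at 30 ppb and 0.21 at 3 ppb. The difference in spread was not tested. An amylase gene, amy2al2, was at 7.31, 6.60 and 6.53 in the 30 ppb pools, against 6.66, 6.75 and 6.87 in the 3 ppb pools, also highest in replicate 1 and lowest in replicate 3 at 30 ppb. The fourth member, prss60.1, stood between 5.62 and 5.95 at 30 ppb and between 5.69 and 6.17 at 3 ppb.

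Among 7 pigment cell genes, with 4 higher and 3 lower (median 0.080), the melanosome fibril gene pmela had the largest difference, at 10.37, 10.46 and 11.60 in the 30 ppb pools, against 9.35, 10.69 and 10.72 in the 3 ppb pools (difference 0.56, SE 0.42, 95% interval -0.41 to 1.52, unadjusted p = 0.223). Replicate 3 at 30 ppb was high and replicate 1 at 3 ppb low, and the rest lay together. The channel gene trpm1a, expressed in melanophores, was lowest (difference -0.099, SE 0.25). The melanin enzyme gene dct differed by 0.096 (SE 0.17). The 14 genes of epidermis and tight junctions, mostly claudins, gave 2 higher and 12 lower with a median of -0.12. The gene tmigd1, of an epithelial immunoglobulin-domain protein, was at 7.13, 7.12 and 6.71 in the 30 ppb pools, against 7.24, 6.78 and 6.80 in the 3 ppb pools (difference 0.046, SE 0.19, 95% interval -0.39 to 0.48). The epidermal group ranged from -0.24 for cldn33b (SE 0.21) to 0.12 for agr1 (SE 0.15), and the pools of all 14 overlapped. Of 5 genes of vessels and heart 2 were higher, with 0.29 for the endothelial cadherin gene cdh5 (SE 0.21) and -0.094 for the cardiac myosin light chain gene myl7 (SE 0.18). Of 5 genes of liver and plasma proteins 2 were higher, with 0.22 for the vitamin D binding protein gene gc (SE 0.25) and -0.060 for agxt2 (SE 0.16).

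No gene of matrix or adhesion passed the threshold. Of 20 genes of bone, cartilage and extracellular matrix, 15 were higher and 5 lower, with a median of 0.061, against -0.029 and 40.5% higher for the 2458 genes. The group's median deviation was -0.173, 0.154 and 0.111 in the 30 ppb pools, against 0.094, -0.074 and -0.136 in the 3 ppb pools. The lowest of these was in replicate 1 at 30 ppb. Besides col19a1, the integrin gene itgb4 was at 11.17, 11.54 and 12.01 in the 30 ppb pools, against 10.93, 11.35 and 11.11 in the 3 ppb pools (difference 0.45, SE 0.23). The laminin chain gene lama1 was at 8.28, 8.94 and 9.15 in the 30 ppb pools, against 8.58, 8.19 and 8.31 in the 3 ppb pools (difference 0.43, SE 0.23). Both overlapped between doses. The matrix protease gene mmp23bb was lowest, at 9.61, 9.49 and 9.20 in the 30 ppb pools, against 9.76, 9.62 and 9.68 in the 3 ppb pools (difference -0.25, SE 0.16, 95% interval -0.61 to 0.11), with no overlap. The bone genes sp7, spp1 and bglap, which mark osteoblasts, differed by -0.17 (SE 0.20), 0.042 (SE 0.20) and 0.10 (SE 0.20).

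Cadherins and protocadherins, adhesion proteins of which the clustered protocadherins mark the surface of neurons, had a median of 0.098, the highest among groups of at least 4 genes, with 26 of 33 genes higher. Replicate 3 at 30 ppb was the highest pool for 25 of the 33. None of the 33 had an unadjusted p under 0.05 or pools that did not overlap. The highest, pcdh2ab10, was at 8.09, 8.45 and 9.10 in the 30 ppb pools, against 7.98, 8.24 and 8.22 in the 3 ppb pools (difference 0.40, SE 0.24, 95% interval -0.15 to 0.96), and replicate 3 at 30 ppb was above the other 5 pools. The lowest, pcdh2g5, was at 6.68, 7.13 and 7.997 in the 30 ppb pools, against 7.45, 7.61 and 7.72 in the 3 ppb pools (difference -0.32, SE 0.30, 95% interval -0.996 to 0.35). Its highest pool, too, was replicate 3 at 30 ppb. The group's median deviation was -0.21, -0.045 and 0.44 in the 30 ppb pools, against -0.096, -0.050 and -0.0045 in the 3 ppb pools. Without replicate 3 at 30 ppb the median difference was -0.081, so its sign came from that pool. Clustered protocadherins share exons and sequence, and their features may not separate them. For 16 axon guidance genes 10 were higher (median 0.022), between -0.12 for rgmb (SE 0.17) and 0.16 for the contactin gene cntn1a (SE 0.17).

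No developmental regulator passed the threshold. Of 53 transcription factor genes 13 were higher and 40 lower (median -0.075), where the 2458 genes had 40.5% higher. In 4, all lower, the pools did not overlap, against 2.73% of the 2458 genes that were lower without overlap. Forkhead gene foxd7 was the lowest, at 8.65, 8.85 and 8.75 in the 30 ppb pools, against 9.25, 8.86 and 9.02 in the 3 ppb pools (difference -0.29, SE 0.16, 95% interval -0.65 to 0.068). The other 3 were pou4f3, a factor of sensory hair cells, with -0.26 (SE 0.15), tfap2e with -0.23 (SE 0.16) and pax1a with -0.13 (SE 0.14). At the other end tcf3a differed by 0.18 (SE 0.18). Without replicate 1 of both doses, 22 of the 53 genes were higher and their median was -0.030, against -0.038 for the 2458 genes. Signalling genes of the Wnt, BMP, FGF, Hedgehog and Notch families gave 10 higher and 23 lower of 33 (median -0.046), 2 of them with no overlap, both lower. With 1 pool left out that median lay between -0.12 and 0.0053. The Wnt ligand gene wnt3a was at 7.36, 7.57 and 8.23 in the 30 ppb pools, against 7.60, 7.08 and 7.25 in the 3 ppb pools (difference 0.41, SE 0.24, 95% interval -0.14 to 0.97). The secreted Wnt antagonist gene sfrp1b was at 9.51, 9.52 and 9.48 in the 30 ppb pools, against 9.77, 9.59 and 9.98 in the 3 ppb pools (difference -0.28, SE 0.15, 95% interval -0.63 to 0.067), and its pools did not overlap.

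No gene that handles foreign compounds passed the threshold. Of 30 genes of xenobiotic metabolism and efflux 19 were higher and 11 lower, with a median of 0.030 and no difference beyond -0.22 and 0.21, the values of the cytochrome P450 genes cyp2aa9 (SE 0.16) and cyp3c4 (SE 0.17). The gene cyp1b1, which the aryl hydrocarbon receptor switches on, was at 7.83, 7.87 and 7.99 in the 30 ppb pools, against 7.65, 7.75 and 8.17 in the 3 ppb pools (difference 0.041, SE 0.17, 95% interval -0.35 to 0.44). A conjugating glucuronosyltransferase gene, ugt5b6, was the 1 member of 30 with no overlap (difference 0.21, SE 0.15). Among all 2458 genes 3.91% had no overlap in either direction. The intervals of all 30 lay within 2-fold and those of 21 within 1.5-fold.

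Solute carriers, the largest group, gave 38 higher and 28 lower of 66 (median 0.029), with 5 whose pools did not overlap, 3 higher and 2 lower, against 3.91% of the 2458 genes in either direction. The transporter gene slc49a3 was at 9.58, 10.03 and 9.95 in the 30 ppb pools, against 9.54, 9.56 and 9.33 in the 3 ppb pools (difference 0.38, SE 0.17, 95% interval -0.0052 to 0.77, unadjusted p = 0.0526), without overlap. The organic anion transporter gene slco1f4 was at 5.87, 5.77 and 5.88 in the 30 ppb pools, against 7.18, 5.82 and 5.98 in the 3 ppb pools (difference -0.49, SE 0.32, 95% interval -1.21 to 0.23), and its difference came from replicate 1 at 3 ppb, without which it was -0.061. Cholesterol and lipid synthesis gave 3 higher and 12 lower of 15 (median -0.066), between -0.14 for stard10 (SE 0.19) and 0.12 for ldlrap1b (SE 0.17). Of 6 alpha/beta hydrolase genes abhd13 was lowest, at 8.52, 8.75 and 8.76 in the 30 ppb pools, against 8.80, 9.02 and 8.85 in the 3 ppb pools (difference -0.21, SE 0.15, 95% interval -0.55 to 0.13), with no overlap, and abhd17aa highest at 0.093 (SE 0.14). Mitochondrial genes gave 6 higher and 12 lower of 18 (median -0.037), with -0.30 for the cytochrome oxidase subunit gene cox5b2 (SE 0.20) and 0.10 for the ubiquinone synthesis gene coq6 (SE 0.21). Oxidative stress genes gave 3 higher and 6 lower of 9 (median -0.023), with 0.30 for the peroxiredoxin gene prdx1 (SE 0.22) and -0.16 for txndc17 (SE 0.16).

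Cell cycle and replication genes gave 3 higher and 9 lower of 12 (median -0.090), with all pools overlapping. The cyclin gene ccna2, which acts in S phase and mitosis, was at 11.86, 12.37 and 12.03 in the 30 ppb pools, against 12.06, 12.16 and 12.46 in the 3 ppb pools (difference -0.14, SE 0.19, 95% interval -0.57 to 0.28). The replication helicase gene mcm5 was at 12.09, 12.08 and 11.93 in the 30 ppb pools, against 12.12, 12.23 and 12.07 in the 3 ppb pools (difference -0.11, SE 0.14, 95% interval -0.43 to 0.22). Extremes were -0.19 for the centromere gene cenpl (SE 0.22) and 0.086 for mad2l2 (SE 0.19). DNA damage genes gave 4 higher and 5 lower of 9 (median -0.013), with -0.22 for the recombination gene rad51b (SE 0.17) and 0.11 for fance (SE 0.21). Among 5 cancer-associated genes the receptor tyrosine kinase gene erbb3b was at 7.73, 7.95 and 8.16 in the 30 ppb pools, against 7.60, 7.69 and 7.51 in the 3 ppb pools (difference 0.35, SE 0.16, 95% interval -0.017 to 0.71, unadjusted p = 0.0592), without overlap. The gene met, which encodes the receptor of hepatocyte growth factor, was at 9.56, 9.21 and 9.31 in the 30 ppb pools, against 9.24, 8.98 and 8.86 in the 3 ppb pools (difference 0.33, SE 0.17), with overlapping pools. The kinase gene raf1a differed by -0.14 (SE 0.16), the telomerase gene tert by -0.14 (SE 0.17) and vhl by 0.023 (SE 0.17).

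Differences in housekeeping processes were mostly small. RNA processing and translation genes gave 17 higher and 46 lower of 63 (median -0.041), and the intervals of 57 lay within 1.5-fold. Mitochondrial ribosome genes mrps25 and mrps27 were its extremes at -0.29 (SE 0.19) and 0.20 (SE 0.15). Ubiquitin and proteasome genes gave 24 higher and 31 lower of 55 (median -0.034). Of these the ubiquitin ligase gene rnf114 was at 6.91, 7.84 and 7.48 in the 30 ppb pools, against 8.52, 7.77 and 7.82 in the 3 ppb pools (difference -0.62, SE 0.28, 95% interval -1.25 to 0.0033, unadjusted p = 0.051), the most negative difference of the 2458 genes, with overlapping pools. Leaving out 1 pool gave rnf114 a difference between -0.84 and -0.38, and leaving out replicate 1 of both doses gave -0.13. The F-box gene fbxo7 was at 8.59, 8.48 and 8.69 in the 30 ppb pools, against 8.39, 8.33 and 8.32 in the 3 ppb pools (difference 0.24, SE 0.14, 95% interval -0.076 to 0.56), without overlap. Trafficking genes gave 28 higher and 30 lower of 58, with a median of -0.0074 that was 0.0064 under cyclic loess. In 5 of the 58, all lower, the pools did not overlap (rab40b, sec61b, snx22, tmed7 and trappc1, named after their values were seen), with differences between -0.23 and -0.11. Among all 2458 genes, 2.73% were lower without overlap. Extremes of the group were -0.25 for the sorting nexin gene snx21 (SE 0.21) and 0.32 for arl6ip6 (SE 0.24). Heat shock and folding genes gave 7 higher and 16 lower of 23 (median -0.060), with -0.32 for hspb9l (SE 0.18) and 0.18 for hspb15 (SE 0.26). Of the clock, 3 genes were measured, and per1b, per3 and rorca differed by 0.030 (SE 0.15), 0.11 (SE 0.23) and 0.13 (SE 0.15). The only germ cell gene, figla, differed by 0.0052 (SE 0.20).

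Over the 759 genes in these lists, 0 passed the threshold, 3 had an unadjusted p under 0.05 (c3a.6, col19a1 and drd2b), and 31 had pools that did not overlap, 8 higher and 23 lower, or 1.05% and 3.03% of the 759. Among the 2458 genes the shares were 1.18% higher and 2.73% lower, and among all units 1.46% and 2.14%. An unadjusted p under 0.05 in the limma fit was found in 8 of the 2458 genes (0.325%) and in 219 of all 37144 units (0.59%). The medians of the 35 groups with at least 4 genes lay between -0.14 and 0.098. Leaving out single pools turned the sign of the median in 25 of the 35 groups, and another scaling did so in 3, hormone receptors and steroid synthesis, membrane trafficking, and vessels and heart. Among the 10 groups that kept their sign with any 1 pool left out, bone, cartilage and matrix was the 1 with a positive median. The other 9 with a negative median were photoreceptors, muscle, ion channels, synapse, transcription factors, heat shock, ubiquitin, RNA processing, and epidermis. The 2458 genes as a whole also kept a negative median in those fits.

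**Figure D4:**
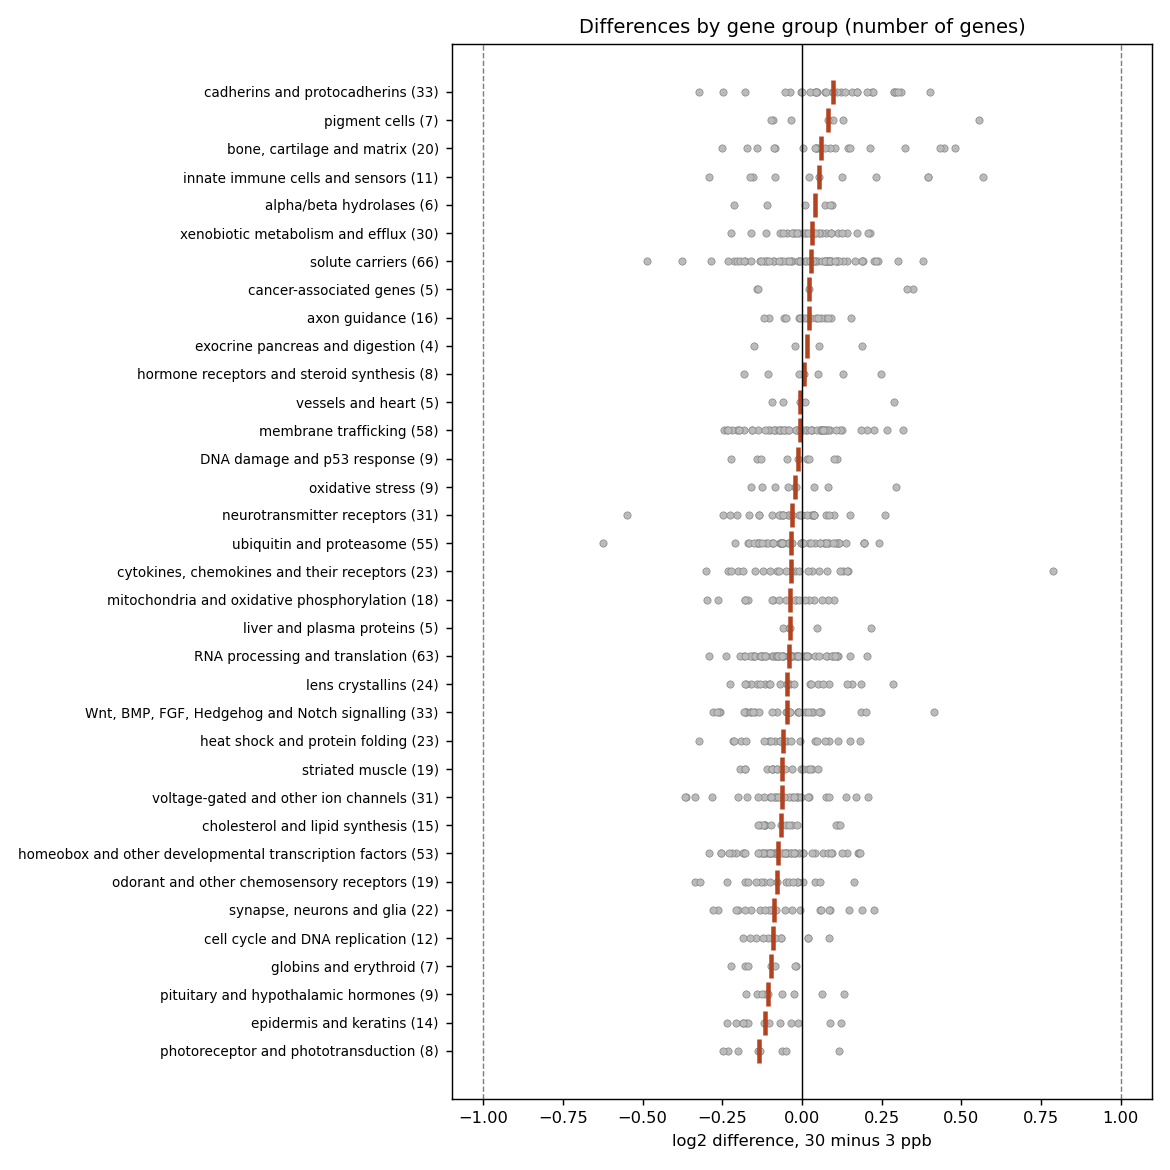
Log2 difference of 30 minus 3 ppb for each gene (grey points) in the 35 groups with at least 4 measured genes, ordered by group median (red bars), with the number of genes in parentheses and dashed lines at 2-fold. Medians run from 0.098 to -0.14, and no gene reaches 2-fold.

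Some units had 1 pool far from the rest. In 175 units (0.471%) 1 pool lay over 2-fold from the nearest of the other 5. Replicate 1 at 3 ppb accounted for 32 of these as the high pool and 65 as the low one; replicate 2 at 3 ppb was high in 6 and low in 0, and replicate 3 at 3 ppb high in 0 and low in 2. At 30 ppb replicate 1 was high in 14 and low in 15, replicate 2 high in 19 and low in 0, and replicate 3 high in 19 and low in 3. With a usable symbol there were 7 such genes, chosen after their values were seen, of which il1b, ctrb.3, prss59.1, pmela, slco1f4 and fam169aa are described above. The seventh, hdgfl3, was at 8.51, 9.96 and 9.64 in the 30 ppb pools, against 9.59, 9.65 and 10.08 in the 3 ppb pools, and replicate 1 at 30 ppb was the low pool, in 10 of its 12 features. The gap of il1b, 2.71 log2 units, was the widest of the 7.

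**Figure D5:**
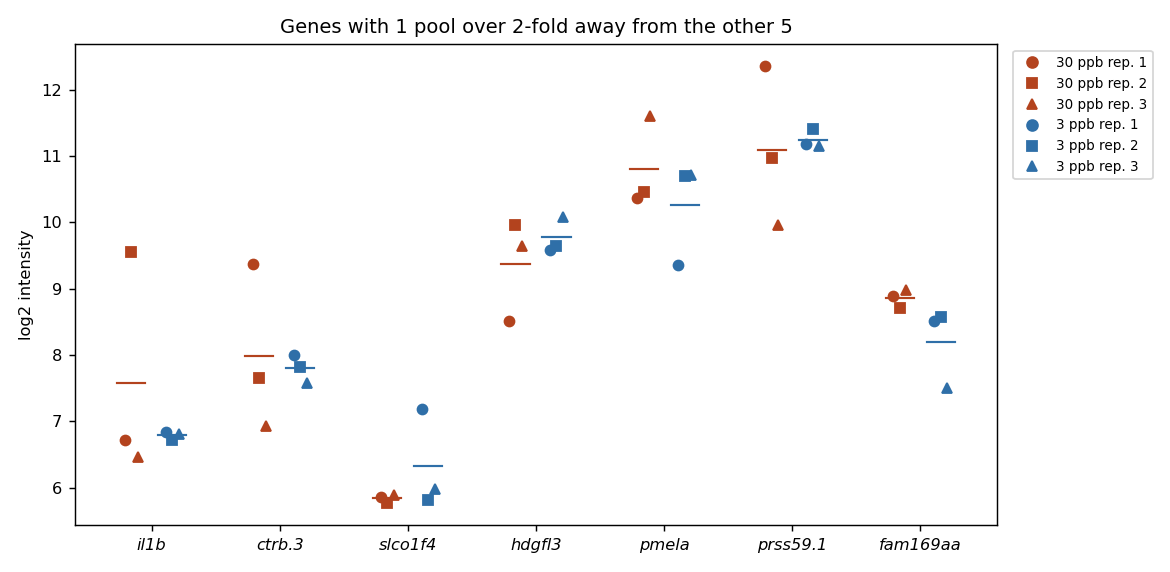
Log2 intensity in each pool of the 7 genes in which 1 pool lay over 2-fold from the nearest of the other 5, with 30 ppb pools left of 3 ppb pools and short lines for group means. The pool that stands apart is replicate 2 at 30 ppb for il1b, replicate 1 at 30 ppb for ctrb.3 and hdgfl3, replicate 3 at 30 ppb for prss59.1, replicate 1 at 3 ppb for slco1f4 and pmela, and replicate 3 at 3 ppb for fam169aa.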

How the data were processed

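The authors' deposited table holds linear intensity values for 385000 features on 12 one-colour arrays. RMA is named, without a version, per the submitters' processing notes, while the sources used here give no genome build. Array medians lay between 529 and 530, so the arrays share a scale; the background was not available to call a gene absent. Intensities were taken to log2 and averaged per gene symbol, or per target ID where no symbol was known, giving 37144 units with a median of 12 features. Symbols came from the platform annotation or, for 399 features, from matching the target ID to a RefSeq transcript accession. Of the 2650 symbols, 2458 were more than a clone ID.

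The 3 pools at 30 ppb and the 3 at 3 ppb were compared with limma 3.58.1 in R 4.3.3 (lmFit, eBayes), with Benjamini-Hochberg adjustment over all units and a threshold of 0.05, and a difference is 30 minus 3 ppb on the log2 scale. Tables were built in pandas 2.3.3 and numpy 2.4.6 under Python 3.11.15, and the fit was tested on simulated data. With 6 arrays, their number limits precision. The comparison, the gene lists and the named genes were chosen with earlier results of these data known. The text names those genes that had both non-overlapping pools and an unadjusted p below 0.05, the highest and lowest of each list with at least 4 genes, 12 genes of the study's themes whatever they showed, and the unnamed targets of largest difference. Others were named after their values were seen. Stems of the lists matched 69 symbols that are not members, which were removed. Alternatives were the feature summary, scaling, a filter on dim units, all 12 arrays, weights, the replicate block, the variance prior, the feature gradient, thresholds, single features and left-out pools.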

Additional observations from a re-analysis of the deposited data

How the results depend on the processing

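The count of 0 calls held under every setting tried except array quality weights, where 6700 units passed; the smallest adjusted p of the 89 named genes and targets outside that fit was 0.998, and 35 of the 89 were below 0.05 with the weights. The cause was not tested. The count at an unadjusted p under 0.05, 219 with the design used, was 389 with the median of features, 13125 with array weights, 344 with the replicate block, 410 with the gradient as a covariate and 4739 of 385000 with every feature tested on its own. Leaving out 1 pool gave 66 to 684 (66 without replicate 3 at 3 ppb, 684 without replicate 1 at 3 ppb), and leaving out replicate 1 of both doses, added after the data were seen, gave 1480. Units whose pools did not overlap numbered 2229 to 6122 with 1 pool left out and 11908 without replicate 1 of both doses, where fewer pools overlap less often by construction. Pools with the same replicate number had deviations correlated at 0.431, -0.171 and 0.275, and only replicate 1 correlated best with its own number. Not every pair was above 0.1 and the labels state no pairing, so the pools were not treated as paired, whether equal numbers mark a shared clutch is not known here, and the replicate block gave 0 calls. Of the 89 named, 62 kept their sign in every setting but array weights. With the median of features the sign turned for pde6hb at -0.072, myl13 at -0.091, agxt2 at 0.073, lhb at 0.18, tmigd1 at -0.15 and mcm5 at 0.020. With the gradient as a covariate the sign turned for myl13 at -0.18, hbaa2 at 0.067, coq6 at -0.040, lhb at 0.21 and npffl at 0.036. With array quality weights the sign turned for pde6hb at -0.27, myl13 at -0.10, cenpl at 0.035, fance at -0.078, arl6ip6 at -0.0099, snx21 at 0.038, coq6 at -0.011, pmela at -0.16, gc at -0.099, agxt2 at 0.011, lhb at 0.41, npffl at 0.10 and cyp1b1 at -0.27. Without replicate 1 of both doses it turned for pde6hb at -0.17, myl13 at -0.12, hbaa2 at 0.0026, hbbe3 at 0.16, ctrb.3 at -0.40, fance at -0.17, rgmb at 0.085, hspb15 at -0.12, snx21 at 0.055, coq6 at -0.12, gc at -0.12, lhb at 0.31, npffl at 0.068 and cyp1b1 at -0.029. Ranges with 1 pool left out were -0.16 to 0.025 for agxt2, -0.32 to 0.020 for cenpl, -0.14 to 0.27 for coq6, -0.094 to 0.60 for crygm2a, -0.50 to 0.72 for ctrb.3, -0.061 to 0.20 for cyp1b1, -0.12 to 0.27 for fance, -0.086 to 0.38 for gc, -0.18 to 0.082 for hbaa2, -0.54 to 0.11 for hbbe3, -0.31 to 0.068 for hcrt, -0.15 to 0.39 for hspb15, -0.20 to 1.35 for il1b, -0.26 to 0.37 for lhb, -0.081 to 0.21 for mad2l2, -0.33 to 0.30 for myl13, -0.27 to 0.031 for myl7, -0.20 to 0.053 for npffl, -0.095 to 0.25 for pde6hb, -0.78 to 0.42 for prss59.1, -0.22 to -0.0016 for rgmb, -0.36 to 0.0017 for smtlb, -0.39 to -0.044 for snx21, -0.25 to 0.039 for stard10, -0.032 to 0.20 for tmigd1, -0.33 to 0.11 for trpm1a; the cause was not tested. Depth of signal over background could not be judged, since no background values were used here, and the number of pools limits the precision.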
